A study of Homo sapiens with 5 samples.

Results

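The contacts between mitochondrial DNA and the autosomes were read from 3 Hi-C matrices of HL60 cells, a long-established line from a human promyelocytic leukemia. Hi-C crosslinks chromatin, cuts the DNA, joins ends that lie near each other and counts the joined pairs. Each matrix holds raw contact counts between bins of 500 kb on hg19, and mitochondrial DNA fills 1 bin of its own. The members were all pairings of that bin with the autosomes, 5773 of the 6203 bins in each matrix. Of these, 5350 bins had enough contacts with other chromosomes in every matrix and are called the kept bins. The groups were HL60 treated with all-trans retinoic acid (ATRA, 1 library), HL60 treated with the phorbol ester TPA (2 libraries) and untreated HL60 (2 libraries). All are 1 cell line, and the labels used here give neither doses nor times. The libraries of a group were pooled into 1 matrix, so no spread between replicates exists, no test between groups was possible. Intervals are 95% intervals for counting error only and describe these libraries. ATRA is known to drive HL60 toward granulocyte-like cells and TPA toward macrophage-like cells.

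Human mitochondrial DNA is a small circle with 37 genes, 13 for proteins of the respiratory chain, 22 for tRNAs and 2 for ribosomal RNAs, and it lies in the cytoplasm, outside the nuclear envelope. A joined pair of mitochondrial and nuclear DNA is therefore commonly used in Hi-C as a gauge of joining between DNA that was not in contact in the living cell. A second known source is nuclear copies of mitochondrial DNA, fragments inserted into the chromosomes during evolution, whose reads can be hard to tell from true mitochondrial ones. RefSeq names many of their remains as pseudogenes such as MTND5P11, a copy of the gene for subunit 5 of respiratory complex I. Chromatin divides into an active, gene-rich A compartment and an inactive, gene-poor B compartment, and small gene-rich chromosomes are known to lie toward the centre of the nucleus.

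Contacts of mitochondrial DNA with autosomes were more frequent in both treated matrices than in the untreated one. They numbered 7846 in ATRA, 6478 in TPA and 3502 in untreated cells. All contacts among autosomes numbered 9254681 in ATRA, 10034727 in TPA and 10247796 in untreated cells. Per 1000000 autosomal contacts this came to 848 in ATRA (829 to 867), 646 in TPA (630 to 661) and 342 in untreated cells (331 to 353). The ratio to untreated was 2.48 in ATRA (exact conditional interval 2.38 to 2.58) and 1.89 in TPA (1.81 to 1.97). Counted per contact between different autosomes, the ratios were 2.21 and 1.81. The amount of mitochondrial DNA per cell was not measured, so more mitochondrial DNA and more joining per copy cannot be told apart. Library and treatment cannot be told apart either, since no library is shared between groups.

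Over single bins the mitochondrial contacts were sparse. A kept bin held 1.47 of them on average in ATRA, 1.21 in TPA and 0.654 in untreated cells. No contact was seen in 1357 kept bins in ATRA (25.4%), 1736 in TPA (32.4%) and 2840 in untreated cells (53.1%). The expected number in a bin was taken from its coverage, meaning its contacts with autosomes and chromosome X other than its own chromosome. The median kept bin had a coverage of 2362 contacts in ATRA, 2349 in TPA and 2291 in untreated cells.

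One bin, chr5:134000001-134500000 on the long arm of chromosome 5, exceeded its expected number by the largest factor of all kept bins in every matrix. It held 7 mitochondrial contacts in ATRA, 7 in TPA and 16 in untreated cells, where its coverage predicted 0.669, 0.600 and 0.352. The observed number was 10.5 times the expected in ATRA (4.21 to 21.6), 11.7 times in TPA (4.69 to 24.1) and 45.5 times in untreated cells (26.0 to 73.8). By number of contacts it was the highest bin of the untreated matrix, where the next held 10, but not of the treated ones, where bins of higher coverage held up to 27 in ATRA and 19 in TPA. Mitochondrial contacts were 0.638% of its coverage in ATRA, 0.583% in TPA and 1.25% in untreated cells. The excess was confined to this bin among its neighbours. The bin just before it had 0 contacts in each of the 3 matrices, and the bin just after it had 1 in ATRA, 0 in TPA and 2 in untreated cells. The 8 neighbours within 2 Mb on either side held at most 2 contacts in any matrix.

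**Figure D1:**
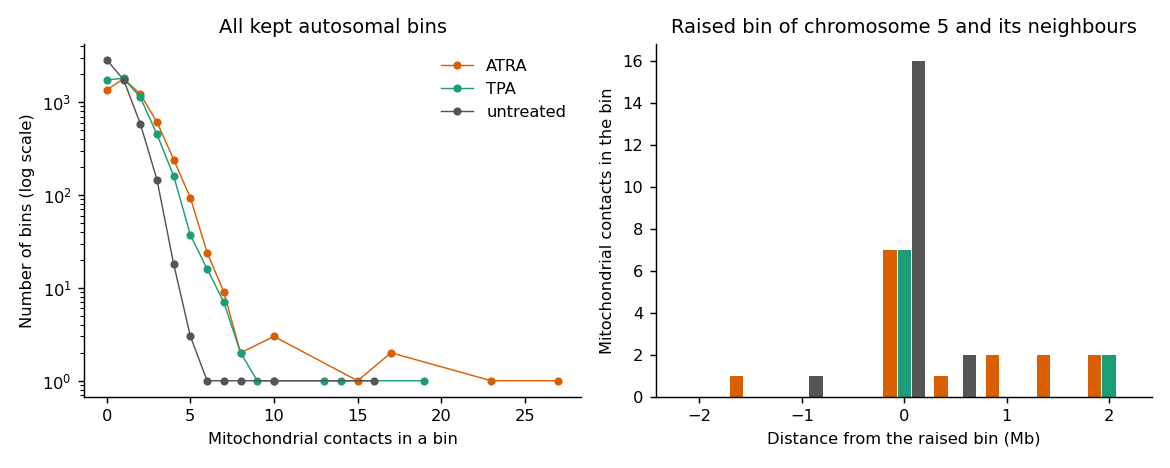
Left, the number of kept autosomal bins (log scale) with each number of mitochondrial contacts in ATRA, TPA and untreated cells. Right, contacts in the raised bin of chromosome 5 (distance 0, with 7, 7 and 16 contacts) and in the 4 bins on each side, which held at most 2.

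A bin was counted as raised at 3 or more contacts and at least 3 times its expected number. By this rule 172 of 5350 kept bins were raised in ATRA (3.21%), 233 in TPA (4.36%) and 157 in untreated cells (2.93%). In 513 bins the rise was seen in 1 matrix and in 23 bins in 2 matrices. The bin of chromosome 5 was the 1 bin raised in all 3 (0.0187%). ATRA and TPA shared 13 raised bins, 7.56% of the ATRA list and 5.58% of the TPA list. ATRA and untreated cells shared 5, 2.91% of the ATRA list and 3.18% of the untreated list. TPA and untreated cells shared 8, 3.43% of the TPA list and 5.10% of the untreated list. Counts this low make most single calls unstable, and 16 bins reached 3 contacts in all 3 matrices. The nearest bins outside the limit were chr4:165000001-165500000 (4 contacts in ATRA, 3 in TPA and 3 in untreated cells), chr1:219500001-220000000 (4, 3 and 3) and chr4:143500001-144000000 (3, 4 and 3), whose lowest ratios were 2.98, 2.92 and 2.43. The coverage of the bin of chromosome 5 was low, at 1097 contacts in ATRA, 1201 in TPA and 1275 in untreated cells. With a coverage minimum of 0.5 times the median it was left out, and the bin at 165 Mb of chromosome 4 took its place just past the limit.

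A long nuclear copy of mitochondrial DNA is known on the long arm of chromosome 5. In the RefSeq gene order (GRCh38.p14), 6 mitochondrial pseudogenes stand in a row between PCBD2 and CATSPER3 on that chromosome. They are MTCYBP18, MTND6P4, MTND5P11, MTND4P12, MTND4LP30 and MTND3P25, named after the genes for cytochrome b and for subunits 6, 5, 4, 4L and 3 of complex I. The table is on another build than the matrices, so whether this row lies in the raised bin was not tested by coordinates. The table names 450 mitochondrial pseudogenes on autosomes, with 29 rows of 5 or more, against the 1 bin raised in all 3 matrices. Chromosome 2 has the most, 85 with 6 such rows, and chromosome 7 has 43 with 3 rows. Chromosome 5 has 30 with 2 rows, the other of which has 11 members. A copy nearly identical to mitochondrial DNA is known near the start of the short arm of chromosome 1. The bin chr1:500001-1000000 held 1 mitochondrial contact in ATRA, 0 in TPA and 0 in untreated cells, with 0.546, 0.589 and 0.359 expected. The upper bounds of its ratio were 10.2 in ATRA, 6.27 in TPA and 10.3 in untreated cells. The interval of the raised bin of chromosome 5 overlapped that of this bin in ATRA and TPA and lay above it in untreated cells. Excesses up to these bounds are compatible with the counts of this bin. How the aligner placed reads of such a copy was not tested.

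The raised bin had fewer contacts in treated than in untreated cells, unlike the other kept bins together. It was chosen by these same counts, which included the highest of the untreated matrix. Such a choice can lower its ratios to untreated, so they are descriptions. Its rate per autosomal contact was 0.484 times that of untreated cells in ATRA (0.169 to 1.24) and 0.447 times in TPA (0.155 to 1.15). The other kept bins together stood at 2.49 times the untreated rate in ATRA (2.39 to 2.59) and at 1.90 times in TPA (1.82 to 1.98), above those intervals. Contacts of mitochondrial DNA with itself also differed from its contacts with the autosomes. They numbered 25 in ATRA (16.2 to 36.9), 74 in TPA (58.1 to 92.9) and 86 in untreated cells (68.8 to 106). Per autosomal contact they were 0.322 times the untreated rate in ATRA (0.198 to 0.507) and 0.879 times in TPA (0.635 to 1.21). For each contact within mitochondrial DNA there were 314 with autosomes in ATRA, 87.5 in TPA and 40.7 in untreated cells. Contacts in the raised bin came to 28 for every 100 contacts within mitochondrial DNA in ATRA, 9.46 in TPA and 18.6 in untreated cells. How far reads of mitochondrial DNA were placed on chromosome 5 by the aligner was not tested.

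Across chromosomes the mitochondrial contacts did not follow coverage alone. Several large chromosomes held more than their coverage predicted and small gene-rich ones held less. Coverage leaves out a bin's own chromosome, so a large chromosome has fewer partner bins and a lower expectation. The ratio to expected correlated with the number of kept bins at r = 0.755 in ATRA, 0.863 in TPA and 0.734 in untreated cells. Chromosome 4 was the highest, chromosome 22 the lowest and chromosome 19 the next lowest in all 3 matrices, and the order of the others varied. At 1.1 or more times expected in every matrix stood 4 of 22 autosomes (18.2%), chromosomes 2, 3, 4 and 5. At 0.9 or less in every matrix stood 5 of 22 (22.7%), chromosomes 16, 17, 19, 20 and 22. With the expectation from the number of bins instead, chromosomes 4, 6, 8 and 13 were high and 16, 17, 19 and 22 low. The ratios correlated across the 22 autosomes at r = 0.936 between ATRA and TPA, 0.895 between ATRA and untreated and 0.912 between TPA and untreated, which is a description of chromosomes that share size and composition.

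Chromosome 4 held 635 contacts in ATRA, 510 in TPA and 283 in untreated cells. Its ratio to expected was 1.24 in ATRA (1.15 to 1.34), 1.23 in TPA (1.12 to 1.34) and 1.3 in untreated cells (1.15 to 1.46). Chromosome 2 measured 1.11 in ATRA, 1.22 in TPA and 1.19 in untreated cells, and chromosome 5 at 1.19, 1.11 and 1.14. With the expectation from all contacts of a bin, chromosome 2 measured 1.02 in ATRA, 1.09 in TPA and 1.08 in untreated cells and was no longer high. These 3 are among the largest chromosomes, and chromosome 4 is known to be gene-poor. Without the raised bin chromosome 5 measured 1.18 in ATRA, 1.09 in TPA and 1.05 in untreated cells, and so was not above 1.1 in all 3. Counted per bin with no correction for coverage, chromosome 5 turned below 1, at 0.957 in ATRA, 0.878 in TPA and 0.884 in untreated cells. Its mean coverage was 0.791 times that of all kept bins.

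Chromosome 22 held 58 contacts in ATRA, 60 in TPA and 28 in untreated cells. Its ratio was 0.5 in ATRA (0.379 to 0.646), 0.556 in TPA (0.424 to 0.715) and 0.464 in untreated cells (0.309 to 0.671). Chromosome 19, the most gene-rich, measured 0.636 in ATRA (0.512 to 0.780), 0.649 in TPA (0.523 to 0.797) and 0.504 in untreated cells (0.356 to 0.691). Chromosome 17 measured 0.726 in ATRA, 0.681 in TPA and 0.594 in untreated cells. The spread over autosomes was narrower in treated cells, with an SD of 0.181 in ATRA, 0.186 in TPA and 0.243 in untreated cells. All 5 low chromosomes lay closer to 1 in each treated matrix than in untreated cells. The 4 high ones did not all do so: chromosome 5 lay farther from 1 in ATRA, chromosome 2 in TPA and chromosome 3 slightly in both. Untreated cells also had the fewest contacts, which adds counting error to their SD.

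**Figure D2:**
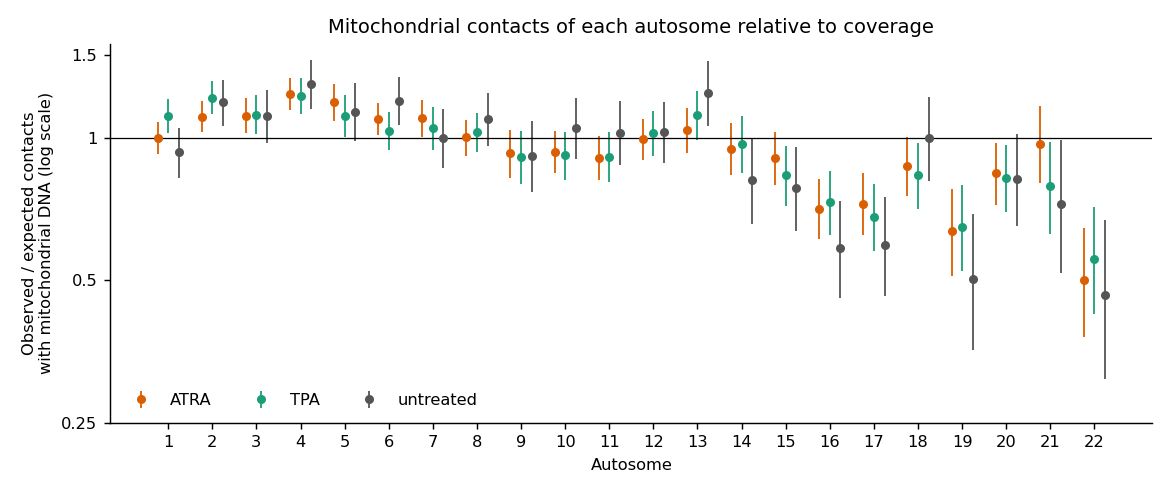
Observed over expected mitochondrial contacts (log scale) of each autosome in ATRA, TPA and untreated cells, with exact Poisson 95% intervals. Chromosomes 2 to 5 lie above 1 and chromosomes 16, 17, 19, 20 and 22 below 1 in all 3 matrices. Among these, the untreated intervals of chromosomes 3, 5 and 20 include 1.

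Compartment A held fewer mitochondrial contacts than compartment B. Compartment scores came from the contact pattern within each chromosome in the summed matrix, in SD of the chromosome, and A and B are bins beyond 0.5 SD on either side. The 1791 A bins held 2170 contacts in ATRA, 1974 in TPA and 969 in untreated cells, and the 2283 B bins held 3684, 2869 and 1666. An A bin averaged 1.21 contacts in ATRA, 1.1 in TPA and 0.541 in untreated cells, and a B bin averaged 1.61, 1.26 and 0.730. Relative to coverage, the ratio of A to B was 0.703 in ATRA (0.666 to 0.741), 0.739 in TPA (0.697 to 0.782) and 0.603 in untreated cells (0.557 to 0.653). Setting the expectation within each chromosome separately gave 0.709, 0.749 and 0.612, so the difference was also present inside chromosomes. On 21 of 22 autosomes the A bins were below the B bins over the 3 matrices summed. Chromosome 18 was the exception, at 0.885 in A (0.782 to 0.998) and 0.774 in B (0.632 to 0.938). Its scores split the chromosome by position. At 0 to 10 Mb and 30 to 40 Mb 100% of its kept bins were in A, and past 50 Mb 0% were. Its A and B labels may therefore not mark compartments. Long stretches of 1 label were also seen on chromosomes among the 21. Chromosome 14 had 0% of its kept bins in A from 30 to 70 Mb. Chromosome 16 had 95% in A at 0 to 10 Mb and 0% at 50 to 60 Mb. The same doubt may apply to their labels.

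The ratio was lower toward A along the range of scores, apart from its B end in untreated cells. In the quintile of bins with the highest A scores the ratio to expected was 0.777 in ATRA (0.734 to 0.822), 0.800 in TPA (0.754 to 0.848) and 0.696 in untreated cells (0.638 to 0.757). In the quintile with the lowest scores, most deeply in B, it was 1.17, 1.18 and 1.21. The peak of the untreated matrix was in the next quintile, at 1.3 (1.21 to 1.39). The ratio varied with chromosome and with compartment. Summed over the matrices, A bins of chromosome 22 measured 0.471 (0.346 to 0.626) and its B bins 0.540 (0.418 to 0.686). A bins of chromosome 4 measured 1.03 (0.924 to 1.14) and its B bins 1.37 (1.27 to 1.48). With the expectation set within quintiles of compartment score, the SD over autosomes was 0.182 in ATRA, 0.185 in TPA and 0.238 in untreated cells, close to the values without it.

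The outermost kept bins of chromosomes were low. The outer 5 Mb of kept bins at each end held 0.767 times the expected contacts in ATRA (0.703 to 0.835), 0.717 in TPA (0.652 to 0.787) and 0.585 in untreated cells (0.507 to 0.672). Each autosome gave the same number of outer bins, so small chromosomes weighed more in them than among all kept bins. The expectation was not set within chromosomes here, and the first kept bins need not lie at the physical end. Lower values in outer bins were also seen within A. Outer A bins measured 0.646 in ATRA, 0.588 in TPA and 0.441 in untreated cells, and inner A bins measured 0.840, 0.885 and 0.804. Outer B bins measured 0.913 in ATRA, 0.856 in TPA and 0.759 in untreated cells, and inner B bins measured 1.18, 1.16 and 1.28.

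Most nuclear bins preferred A more than mitochondrial DNA did. The A to B ratio of mitochondrial DNA, at 0.703 in ATRA, 0.739 in TPA and 0.603 in untreated cells, was set beside the same ratio for the contacts of each nuclear bin with other autosomes. Nuclear A bins had a median of 1.18 in ATRA, 1.23 in TPA and 1.2 in untreated cells. Nuclear B bins had a median of 0.852 in ATRA (5th to 95th percentile 0.747 to 0.993), 0.819 in TPA (0.685 to 0.972) and 0.783 in untreated cells (0.687 to 1.02). Of the 2283 B bins, 29 lay below mitochondrial DNA in ATRA (1.27%), 383 in TPA (16.8%) and 4 in untreated cells (0.175%). Single nuclear bins carry counting error of their own, which widens their distribution.

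**Figure D3:**
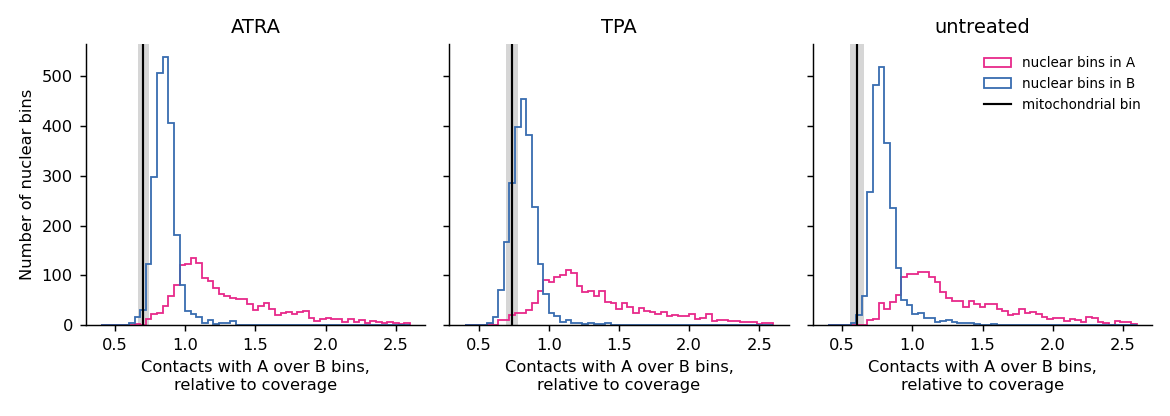
Contacts with A over contacts with B bins, relative to coverage, for nuclear bins in A and in B (histograms, values past either end in the outermost classes) and for mitochondrial DNA (line, with its 95% interval in grey). In untreated cells the mitochondrial value of 0.603 lies at the lower edge of the nuclear B bins.

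Mitochondrial contacts tracked coverage more closely in treated than in untreated cells. The kept bins were divided into quintiles by coverage averaged over the matrices. In the lowest quintile a bin averaged 1.01 mitochondrial contacts in ATRA (0.948 to 1.07), 0.878 in TPA (0.822 to 0.936) and 0.508 in untreated cells (0.467 to 0.553). In the highest quintile it averaged 1.83 in ATRA (1.75 to 1.91), 1.51 in TPA (1.44 to 1.58) and 0.734 in untreated cells (0.683 to 0.787). The highest quintile therefore held 1.81 times the mitochondrial contacts of the lowest in ATRA (1.68 to 1.95), 1.72 times in TPA (1.58 to 1.86) and 1.44 times in untreated cells (1.29 to 1.61). Its coverage was 2.56 times that of the lowest in ATRA, 2.59 times in TPA and 2.68 times in untreated cells. Between these ends the untreated values were nearly level, at 0.683, 0.679 and 0.665. Across the 5350 bins, which share chromosomes and libraries, the count correlated with coverage at r = 0.461 in ATRA, 0.347 in TPA and 0.206 in untreated cells. The matrices differ in mitochondrial depth, so these coefficients are not compared further.

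**Figure D4:**
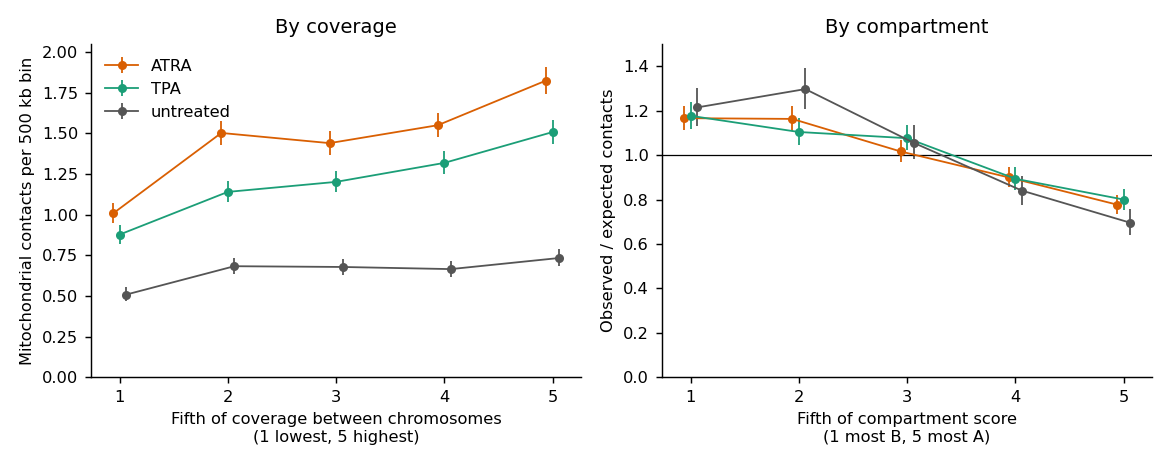
Left, mean mitochondrial contacts per 500 kb bin in quintiles of coverage, and right, observed over expected contacts in quintiles of compartment score, in ATRA, TPA and untreated cells with exact Poisson 95% intervals. In all 3 matrices contacts per bin are higher in the highest than in the lowest quintile of coverage, and observed over expected is lower toward A.

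Amplified DNA offers a check of coverage at its extreme. HL60 is known to carry extra copies of the region around MYC, a growth-promoting transcription factor gene on chromosome 8. In all 3 matrices 16 bins had more than 2 times the median coverage, 7 of them between 126 and 131 Mb of chromosome 8. The bin that starts at 130 Mb had a coverage of 41767 contacts in ATRA, 40203 in TPA and 40452 in untreated cells. It held 27 mitochondrial contacts in ATRA, 19 in TPA and 10 in untreated cells, where 25.5, 20.1 and 11.2 were expected. Over the 7 bins the ratio to expected was 1.08 in ATRA (0.896 to 1.3), 0.905 in TPA (0.719 to 1.12) and 0.862 in untreated cells (0.618 to 1.17), and every interval includes 1. With an equal expectation for every bin, these 7 bins joined the bin of chromosome 5 as raised in all 3 matrices.

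The higher rate in treated cells was spread over the genome. The lower bound of the ratio to untreated exceeded 1 on 22 of 22 autosomes in ATRA and on 22 of 22 in TPA. In ATRA the ratio was highest on chromosome 21, at 3.18 (2.20 to 4.68), and lowest on chromosome 13, at 2.19 (1.81 to 2.66). In TPA it was highest on chromosome 19, at 2.45 (1.66 to 3.67), and lowest on chromosome 18, at 1.63 (1.26 to 2.13). These intervals overlap within each treatment. By compartment the ATRA ratio was 2.48 in A (2.30 to 2.68) and 2.45 in B (2.31 to 2.6). The TPA ratio was 2.08 in A (1.93 to 2.25) and 1.76 in B (1.65 to 1.87). The A to B quotient per bin in TPA was 1.18 times that in untreated cells (1.07 to 1.3), and in ATRA it was 1.01 times (0.921 to 1.11). Relative to coverage, which itself moved between compartments, the quotient was 1.22 times the untreated one in TPA (1.11 to 1.35) and 1.17 times in ATRA (1.06 to 1.28). With compartments taken from contact with chromosome 19 instead, the A to B ratio was 0.816 in ATRA, 0.792 in TPA and 0.791 in untreated cells, so this difference between groups was not seen.

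Joining of unrelated DNA is expected to add contacts between chromosomes as well, so both were set side by side. Contacts between autosomes made up 67.9% of autosomal contacts in ATRA, 63.1% in TPA and 60.5% in untreated cells. Relative to untreated this share was 1.12 times in ATRA and 1.04 times in TPA, while the mitochondrial rate was 2.48 and 1.89 times. The sizes of these ratios are not directly comparable. Contacts between autosomes, and the classes of them below, are part of the total they are divided by, which bounds their ratios. Mitochondrial contacts lie outside that total. ATRA had the larger value on both measures. Nuclear contacts between chromosomes moved unequally with compartment. Between A bins they were 0.940 times the untreated rate in ATRA (0.937 to 0.942) and 1.01 times in TPA. Between A and B bins they were 1.13 times in ATRA and 1.04 times in TPA, and between B bins 1.23 times in ATRA and 1.07 times in TPA. The mitochondrial ratios were above those of all these nuclear classes, and that of contacts within mitochondrial DNA was below 1 in ATRA and had an interval including 1 in TPA. The part of random ligation in the mitochondrial and the nuclear differences was not tested.

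**Figure D5:**
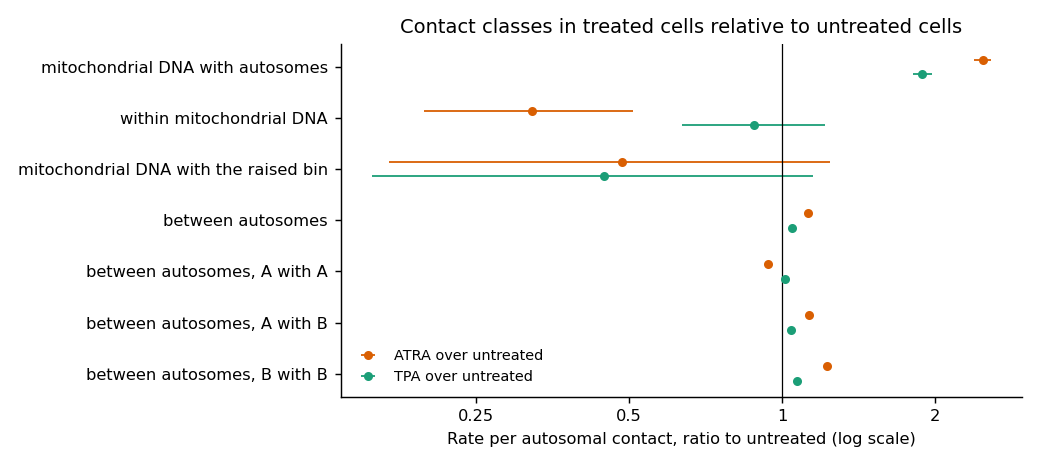
Rate per autosomal contact in ATRA and TPA over that in untreated cells (log scale) for 7 contact classes, with exact conditional 95% intervals. Contacts of mitochondrial DNA with autosomes stand at 2.48 and 1.89, those within mitochondrial DNA at 0.322 and 0.879, and classes of contacts between autosomes between 0.940 and 1.23.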

How the data were processed

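HL60 chromatin was crosslinked, cut with HindIII and ligated, per the labels' protocols. Alignment with Bowtie, filtering with HiCUP and counting with HOMER are named in the series' design text, and HOMER 4.7 and hg19 in the submitters' processing notes. Filter settings are not stated in the labels. The deposited values are whole, unnormalized counts of contacts for each pair of 500 kb bins.

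Contacts within a bin were halved, since each is counted from both ends, and 1 asymmetric cell of the untreated matrix took its upper value. Kept bins had at least 0.2 times the median coverage in every matrix. Expected mitochondrial contacts were the total over kept bins shared out by coverage. Intervals are exact Poisson or exact conditional binomial, and the interval of a quotient of A to B ratios is log-normal. Reads without molecular identifiers are not independent molecules. Compartment scores came from the summed matrix, balanced in 60 iterations, and their sign followed contact with chromosome 19 (17 and 22 for 19 itself). The rule was tested on simulated data with Python 3.11.15, numpy 2.4.6 and scipy 1.17.1. Named regions are bins raised in all 3 matrices, the 3 nearest outside the limit, the 3 highest and 3 lowest chromosomes and those changing most and least. The members and lists were chosen with earlier results of these data known. No mitochondrial, HindIII or hg19 sequence was used here.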

Additional observations from a re-analysis of the deposited data

Results flagged for a closer look

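Chromosome X lies outside the autosomal comparisons. It held more mitochondrial contacts in treated than in untreated cells, but its ratio to expected was highest in untreated cells. Its 282 bins with enough coverage held 214 contacts in ATRA, 189 in TPA and 108 in untreated cells. Relative to the expectation from the autosomes the ratio was 1.13 in ATRA (0.986 to 1.29), 1.26 in TPA (1.08 to 1.45) and 1.36 in untreated cells (1.12 to 1.64). The difference between the groups was not tested, since each is 1 matrix.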

How the results depend on the processing

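No paired analysis was possible because the libraries of a group were pooled into 1 matrix, which also left no replicate to leave out. The alternative of HindIII sites per bin was not run, as no genome was used here. Per contact between autosomes the mitochondrial ratio to untreated was 2.21 in ATRA and 1.81 in TPA, and per contact within autosomes 3.05 and 2.02. By quintile of coverage, added after seeing the data, it was 2.19, 2.44, 2.35, 2.58 and 2.75 in quintiles 1 to 5 in ATRA. In TPA it was 1.76, 1.70, 1.81, 2.02 and 2.10. Bins raised in all 3 matrices numbered 2 with the expectation from all contacts (the bins of chromosome 5 and at 165 Mb of chromosome 4), 8 with an equal expectation and 5 at 2 times expected, where chr8:21000001-21500000 joined the 4 named bins. The A to B ratio from contact with chromosome 19 was 0.816 in ATRA (0.764 to 0.872), 0.792 in TPA (0.738 to 0.851) and 0.791 in untreated cells (0.715 to 0.874). These intervals overlap, so the difference between groups was not seen in this setting. With the expectation from all contacts the A to B ratio was 0.641 in ATRA, 0.697 in TPA and 0.542 in untreated cells. With bins beyond 0 SD it was 0.753 in ATRA, 0.761 in TPA and 0.665 in untreated cells. With an equal expectation, added later, it was 0.751 in ATRA, 0.877 in TPA and 0.741 in untreated cells. Every alternative kept A below B. With the expectation from all contacts chromosome 2 left the high autosomes. By number of bins chromosome 5 turned to 0.957 in ATRA, 0.878 in TPA and 0.884 in untreated cells, and the autosomes high in all 3 were then 4, 6, 8 and 13. The causes were not tested. Depth limits single bins: an average of 0.654 untreated contacts leaves all but large excesses undetectable.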

Other observations

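Mitochondrial contacts were also summed over 260 windows of 10 Mb, a window size chosen after seeing the data. In 72 windows the ratio to expected was above 1 in all 3 matrices, and in 59 it was below 1 in all 3. At 1.3 or more in every matrix stood 12 windows. The highest over the summed matrices was 110 to 120 Mb of chromosome 7, with 52 contacts in ATRA, 31 in TPA and 22 in untreated cells and a ratio of 1.81 (1.48 to 2.19). Of its bins 15% were in A and 30% in B. The window at 60 to 70 Mb of chromosome 4, with 10% of its bins in A and 65% in B, followed at 1.80 (1.44 to 2.22). That at 60 to 70 Mb of chromosome 6, with 0% in A and 82.4% in B, measured 1.76 (1.38 to 2.22).

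At the other end, 11 windows stood at 0.7 or less in every matrix. The lowest was 20 to 30 Mb of chromosome 16, with 17 contacts in ATRA, 9 in TPA and 7 in untreated cells and a ratio of 0.419 (0.288 to 0.588). Of its bins 30% were in A and 5% in B. Chromosome 16 at 10 to 20 Mb, with 50% in A and 10% in B, measured 0.433 (0.3 to 0.606). Chromosome 19 at 0 to 10 Mb, with 80% in A and 10% in B, measured 0.465 (0.309 to 0.672). Low windows were not all in A: 30 to 40 Mb of chromosome 19, with 0% in A and 75% in B, measured 0.549 (0.394 to 0.745). Windows were ranked on these values, so their intervals are descriptions.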
